A study of Homo sapiens with 20 samples.

Results

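The Roquin and Regnase genes encode proteins that shorten the life of messenger RNAs. Their transcripts were measured in HEK293, a human embryonic kidney cell line, in cells where another decay factor, ZFP36, could be switched on. The 6 genes were RC3H1 and RC3H2, which encode Roquin-1 and Roquin-2, and ZC3H12A, ZC3H12B, ZC3H12C and ZC3H12D, which encode the Regnase proteins. Every probe set of the array that names exactly 1 of these genes was taken, which gave 15 of the 50441 probe sets and 5 of the 19353 genes. RC3H2 had 7 probe sets, RC3H1 had 3, ZC3H12B and ZC3H12C had 2 each and ZC3H12D had 1. The only probe set listed for ZC3H12A also names a microRNA gene and was left out.

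RNA was hybridized to 20 Affymetrix Human Genome U133 Plus 2.0 arrays in 4 groups of 5. The line with inducible ZFP36 was made from Flp-In T-REx HEK293 cells, and the study's methods call the control cells parental HEK293 cells. The first group was a stable line carrying an EGFP-ZFP36 fusion gene, given doxycycline at 1 µg/ml for 16 h to switch the fusion on (induced cells). The second was the same line given water (mock-induced cells). The other groups were the parental line, without the fusion, given doxycycline or water (parental doxycycline and parental vehicle cells). In the study's methods, induced cells were sorted for green fluorescence and mock-induced cells were sorted to leave fluorescent cells out, flasks were pooled, and flasks with doxycycline were less confluent with more floating cells. Sorting and induction therefore cannot be told apart in the comparison of induced with mock-induced cells. By the methods, parental cells were also seeded less dilute and grown for fewer days before treatment. Line, passage, seeding and days of growth therefore cannot be told apart in the comparison of mock-induced with parental cells. Arrays of a group came from independent days or passages of 1 line, so p-values measure the spread between those preparations.

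Roquin proteins carry a ROQ domain that binds short stem-loops in 3′ untranslated regions (UTRs), together with a RING finger and a CCCH zinc finger, and they bring the CCR4-NOT deadenylase and the decapping machinery to the bound message. Regnase-1 instead cuts stem-loops of inflammatory messages with an endonuclease domain of the NYN type, next to a single CCCH finger, and it acts on translated messages together with the helicase UPF1. ZFP36, or tristetraprolin, binds linear AU-rich elements through tandem CCCH fingers and also recruits CCR4-NOT. Both families are best known from T cells and macrophages, where they hold down cytokine and costimulatory messages.

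The study also listed ZFP36 binding sites from PAR-CLIP, a crosslinking method, in the same cell background. In the part of that list used here, 3′ UTR sites were found for the 2 Roquin genes and for no Regnase gene. The list was not used whole, so sites of Regnase genes may be missing from it. The study's own text counts fewer sites for RC3H2 than are listed below. The sites below are shown because they are the stretches of the Roquin messages at which ZFP36 was crosslinked. They are written 5′ to 3′ on the strand of the transcript, as DNA, and the coordinates are those of genome build hg19 on the minus strand. Capitals mark every match to the nonamer TTATTTATT, the octamer TATTTATT, the pentamer ATTTA or the half-site TATT, which overlap one another and were searched on the transcript strand alone. RC3H2 had 4 listed sites, at chr9:125611478-125611507 (site A, 30 of its 42 bases), chr9:125610124-125610144 (site B), chr9:125609528-125609552 (site C) and chr9:125607213-125607235 (site D). RC3H1 had 2 adjoining sites, of which site B, at chr1:173904621-173904645, is shown.
RC3H2 site A: acttagttaacTTATTTATTtcTATTttat
RC3H2 site B: atcttacacATTTATTTAata
RC3H2 site C: TATTTAaccttatctttttaatttt
RC3H2 site D: cttcTATTTAaaactataATTTA
RC3H1 site B: tttcttctaaaTATTacttTATTtg
All 4 RC3H2 sites held the pentamer and site A also held the nonamer, whereas the RC3H1 sites held half-sites without a pentamer. Of the 1026 sites of 3′ UTRs in the same part of the list, 5.17% held the nonamer, 10.2% the octamer, 42.5% the pentamer and 77.9% the half-site.

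The arrays are on the log2 scale of GCRMA, on which the lowest value is 2.19 and stands for no signal above background. A probe set was tested where its mean passed 4.5 in at least 1 of the groups compared, and the threshold for a call was a Bonferroni-adjusted p under 0.01 in limma. Of the 15 probe sets, 10 passed the filter: 6 of RC3H2, 2 of RC3H1, and 1 each of ZC3H12B and ZC3H12C. Values of different probe sets were not set against each other, since their affinities differ, and only differences between groups were compared.

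In induced against mock-induced cells, 3 of the 10 probe sets were called, all of them of RC3H2, 1 higher and 2 lower. Over the whole array 45.3% of the 18316 tested probe sets were called, 22.8% higher and 22.5% lower. At a Benjamini-Hochberg adjusted p under 0.05, 8 of the 10 passed, against 86.4% of all. The groups did not overlap for 7 of the 10 members, against 77.9% of all tested probe sets. The median difference was 0.14 for the members and 0.13 for all tested probe sets on the log2 scale. Centring each array on its poly-A spike-in controls moved the median of all probe sets to −0.25 and the split of calls to 2402 higher and 5821 lower, against 4182 and 4115 as deposited. These controls read 8.80 ± 0.24 in induced and 8.43 ± 0.18 in mock-induced arrays (mean ± SD, n = 5 each). In parental cells, without the fusion, they read 8.75 ± 0.26 with doxycycline and 8.39 ± 0.63 with vehicle. The same centring moved the median of all probe sets to −0.35 between those 2 parental groups. The part of the controls in the differences was not tested.

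RC3H2, the gene of Roquin-2, gave readings in opposite directions. In bulk RNA, fewer cells of a type and less RNA per cell cannot be told apart. Probe set 225813_at read 10.69, 10.80, 10.80, 10.60 and 10.72 on the 5 induced arrays, against 11.85, 11.93, 12.10, 11.91 and 11.92 on the 5 mock-induced arrays. Every induced array lay more than 1 log2 unit below every mock-induced array. The difference was −1.22 (SE 0.06, adjusted p = 1.66e-05 in limma), a level 2.33-fold lower in induced cells, and the exact permutation test gave 0.00794, the smallest p that 5 against 5 arrays allow.

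Probe set 231716_at of RC3H2 fell as well. It read 8.16, 8.44, 8.25, 8.46 and 8.46 in induced cells, against 9.30, 9.35, 9.17, 9.31 and 9.05 in mock-induced cells, with no overlap. The difference was −0.88 (SE 0.08, adjusted p = 0.00736 in limma). When 1 array was left out, the adjusted p was between 0.0083 and 0.0491, and it stayed under 0.01 only without mock-induced replicate 5. With the replicate number as a block it was 0.322, which is no call. It was also not called without the filter (adjusted p = 0.132), with a separate spread per group (0.116) or with all 20 arrays in 1 model (0.712). Centred on the hybridization or the poly-A controls it was still called (adjusted p = 0.000923 and 5.07e-08). Probe set 220202_s_at read 7.92, 8.02, 7.51, 7.86 and 7.71 in induced and 8.41, 8.33, 8.08, 8.36 and 8.04 in mock-induced cells. All 5 induced values lay below all 5 mock-induced values (exact permutation p = 0.00794), but the difference of −0.44 (SE 0.11) was not called.

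The other 3 tested RC3H2 probe sets read higher after induction. Probe set 220201_at read 8.14, 8.13, 8.28, 8.11 and 8.07 in induced cells, against 6.89, 7.06, 6.80, 6.83 and 6.89 in mock-induced cells. The difference was 1.25 (SE 0.06, adjusted p = 1.44e-05 in limma), a level 2.38-fold higher in induced cells, about the size of the fall of 225813_at. Centred on the poly-A controls, it was 0.89 and was not called (adjusted p = 0.0106), and with the replicate number as a block the adjusted p of 0.0114 also missed the threshold.

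Probe set 230133_at read 6.64, 6.82, 6.23, 6.66 and 6.66 in induced and 5.83, 6.03, 6.11, 5.99 and 6.09 in mock-induced cells. Probe set 230134_s_at read 6.81, 6.78, 6.81, 6.84 and 6.80 in induced and 6.36, 6.31, 5.83, 6.32 and 6.24 in mock-induced cells. Both groups of arrays were separate for both probe sets (exact permutation p = 0.00794 each). The differences, 0.59 (SE 0.10) and 0.59 (SE 0.09), were not called at the Bonferroni threshold, and centring on the poly-A controls left 0.23 for each.

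**Figure D1:**
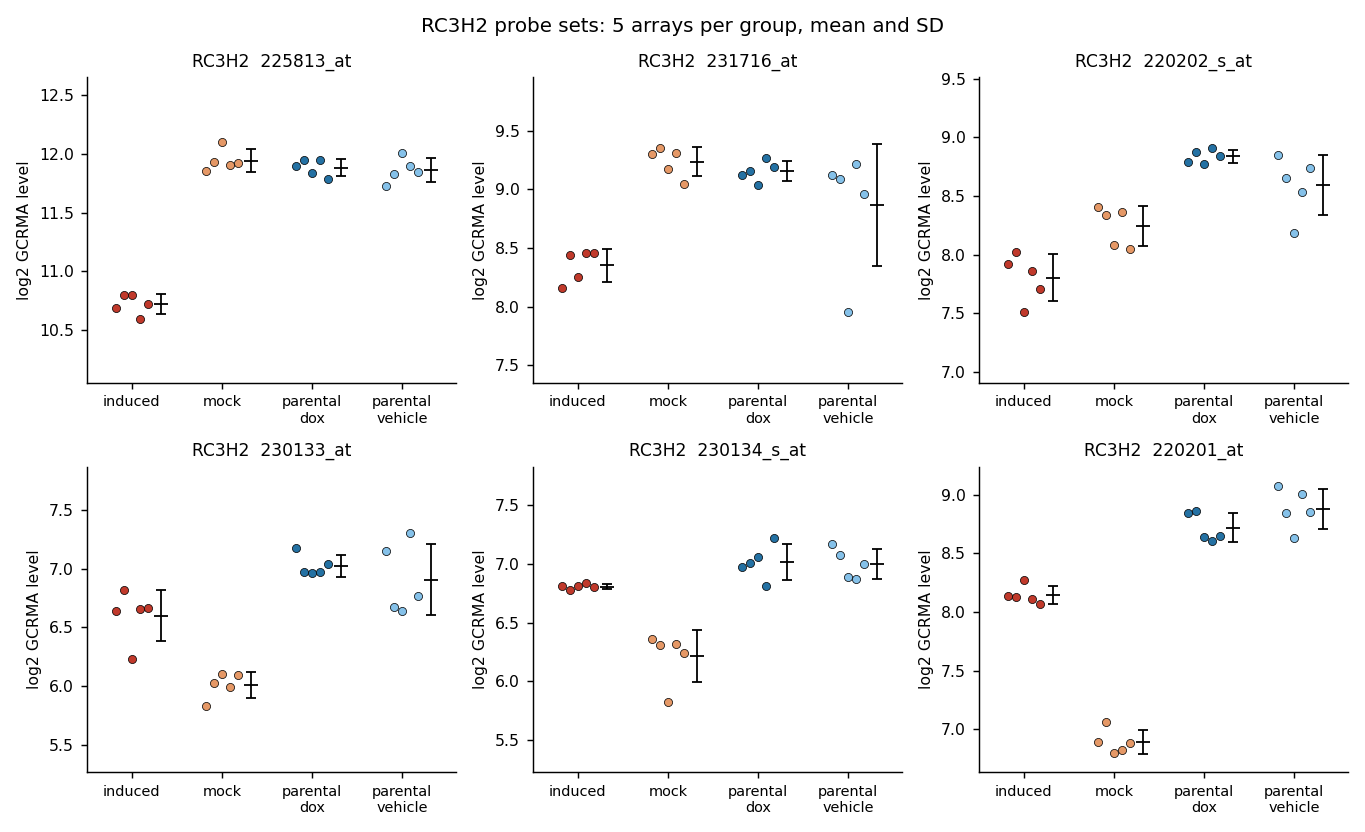
Log2 GCRMA level of the 6 tested RC3H2 probe sets on each array (points) with the mean and SD of each group of 5 (bars). In 225813_at the 5 induced arrays lie between 10.60 and 10.80 and the other 15 arrays at 11.72 or above, whereas in 220201_at the lowest group is mock-induced, at 6.80 to 7.06.

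Over the 20 arrays the 6 probe sets differed in how far they ran together. The values of 220201_at correlated with those of 230133_at at r = 0.91 and with those of 230134_s_at at r = 0.93, and 225813_at correlated with 231716_at and with 220202_s_at at r = 0.71 each. Between 225813_at and 220201_at r was −0.05. These are Pearson correlations that include the differences between the 4 groups, and they are given as a description. The platform annotation draws 220201_at and 220202_s_at from the same source sequence, and 230133_at and 230134_s_at from another, so a pair from 1 source (220201_at and 220202_s_at, r = 0.46) had differences of opposite sign between induced and mock-induced cells. Where the probes lie along RC3H2 was not looked up here. Of the 4859 genes with at least 2 tested probe sets, 187 (3.85%) had calls in both directions, and of the 59 genes with at least 6, there were 6 (10.2%), RC3H2 among them.

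The seventh RC3H2 probe set, 238421_at, stayed under the filter. It read 2.19 to 2.23 on the induced arrays, which is at the background, and 3.13 to 3.74 on the mock-induced arrays. In parental cells it ranged between 2.75 and 5.13 with doxycycline and between 2.77 and 4.68 with vehicle. With 1 value for the whole gene, the mean of all its probe sets, the difference between induced and mock-induced cells was −0.19 and was not called. That mean includes the untested 238421_at, which averaged 2.21 in induced and 3.45 in mock-induced cells.

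RC3H1, the gene of Roquin-1 and the better studied of the pair in T cells, differed little. Probe set 225893_at read 10.31, 10.29, 10.25, 10.51 and 10.26 in induced cells, against 10.14, 10.06, 10.09, 10.22 and 9.84 in mock-induced cells. The groups narrowly did not overlap, and the difference was 0.26 (SE 0.08, exact permutation p = 0.00794), not called. Probe set 228996_at read 6.27 to 6.89 in induced cells and 6.43 to 6.67 in mock-induced cells (difference 0.14, SE 0.11, exact permutation p = 0.294). Centred on the poly-A controls, both differences changed sign, to −0.10 and −0.22. The third RC3H1 probe set, 215109_at, was under the filter, at 3.64 to 5.02 in induced and 3.62 to 4.42 in mock-induced cells.

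Among the Regnase genes, ZC3H12C (Regnase-3) was clearly above background. Its probe set 231899_at read 8.51, 8.53, 8.36, 8.36 and 8.62 in induced and 8.48, 8.27, 8.24, 8.37 and 8.35 in mock-induced cells. The ranges overlapped and the difference was 0.13 (SE 0.07, exact permutation p = 0.0714), with a 95% interval from −0.02 to 0.28. On the poly-A scale it was −0.23. The second ZC3H12C probe set, 1559763_at, did not exceed 2.43 on any array.

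ZC3H12B (Regnase-2) lay just over the filter. Its probe set 229234_at read 4.69, 4.66, 4.70, 4.31 and 5.09 in induced cells, against 5.09, 5.09, 4.87, 5.09 and 5.09 in mock-induced cells. The highest induced array reached the top of the mock-induced range, and the difference of −0.36 (SE 0.12, exact permutation p = 0.0476) was not called. The other ZC3H12B probe set, 234878_at, was at 2.19 on all 20 arrays. ZC3H12D (Regnase-4) had 1 probe set, 1559263_s_at, between 2.19 and 2.40, so its message was not detectable above background.

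**Figure D2:**
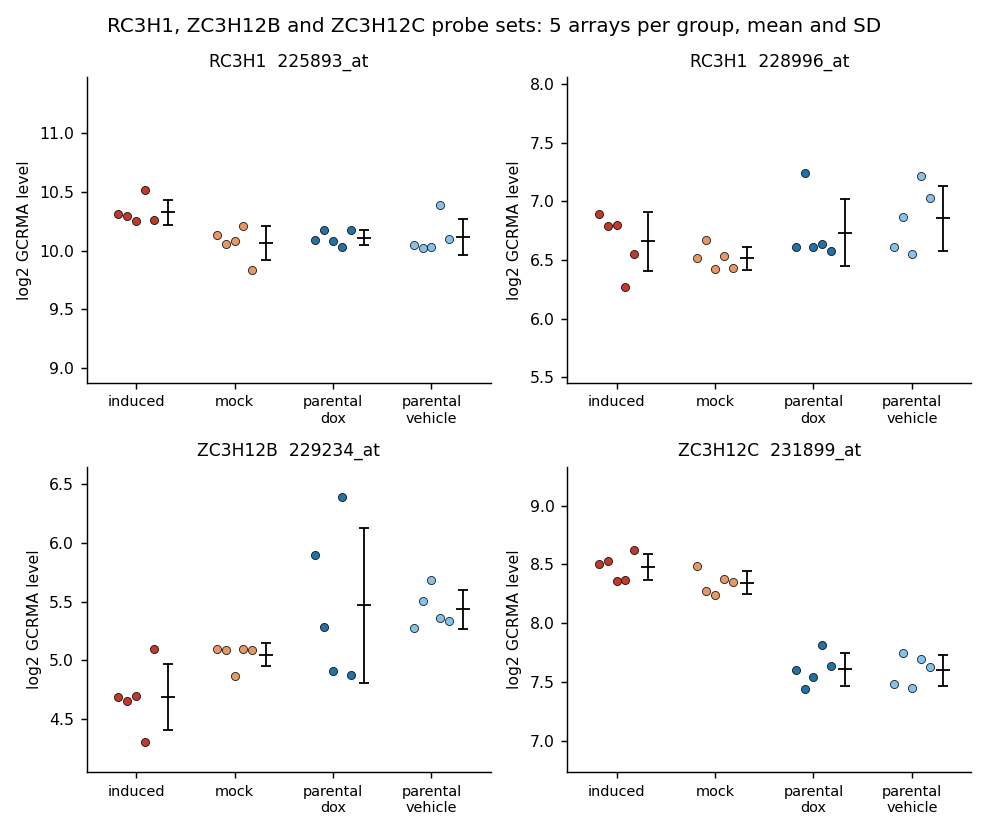
Log2 GCRMA level of the tested probe sets of RC3H1, ZC3H12B and ZC3H12C on each array (points) with the mean and SD of each group of 5 (bars). ZC3H12C lies between 8.24 and 8.62 in both groups of the EGFP-ZFP36 line and between 7.44 and 7.82 in both parental groups.

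Parental cells show what doxycycline did without the fusion gene. None of the 10 member probe sets was called between parental doxycycline and parental vehicle cells, and of all 17435 tested probe sets 0 were called (0%), with 375 (2.15%) at an unadjusted p under 0.05 in limma, where the members had 0. RC3H2 225813_at read 11.88 ± 0.07 with doxycycline and 11.86 ± 0.10 with vehicle (SD, n = 5 each), a difference of 0.02 with a 95% interval from −0.12 to 0.16. RC3H2 220201_at read 8.72 ± 0.12 with doxycycline and 8.88 ± 0.17 with vehicle, a difference of −0.16 with a 95% interval from −0.36 to 0.04. Neither interval reaches the differences seen in the EGFP-ZFP36 line. The widest interval was that of ZC3H12B, from −0.56 to 0.63. The smallest exact permutation p was 0.0397, for RC3H2 220202_s_at (0.24 higher with doxycycline), 1 of 10 such tests.

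The interaction term, fitted over the 20 arrays, tests whether the difference with doxycycline was the same in the EGFP-ZFP36 and parental lines. It was called for 2 of the 10 members, against 39.7% of the 18639 probe sets tested. At a Benjamini-Hochberg adjusted p under 0.05 the counts were 7 of 10, against 77.6%. For RC3H2 225813_at it was −1.24 (SE 0.09, adjusted p = 3.26e-07) and for RC3H2 220201_at it was 1.41 (SE 0.11, adjusted p = 2.24e-06). Both calls were lost when arrays were centred on the poly-A controls, with the values at −1.25 and 1.41, and over all probe sets that scale gave 680 higher and 1920 lower calls in place of 3560 and 3842. Centred on the hybridization controls, the split was 1336 and 3495. For 231716_at the term was −1.17 (SE 0.23) and was not called. Parental vehicle replicate 3 read 7.96 in that probe set, against 8.96 to 9.22 on the other 4 arrays of its group, and without it the term was −0.94 and was called (adjusted p = 0.00186).

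**Figure D3:**
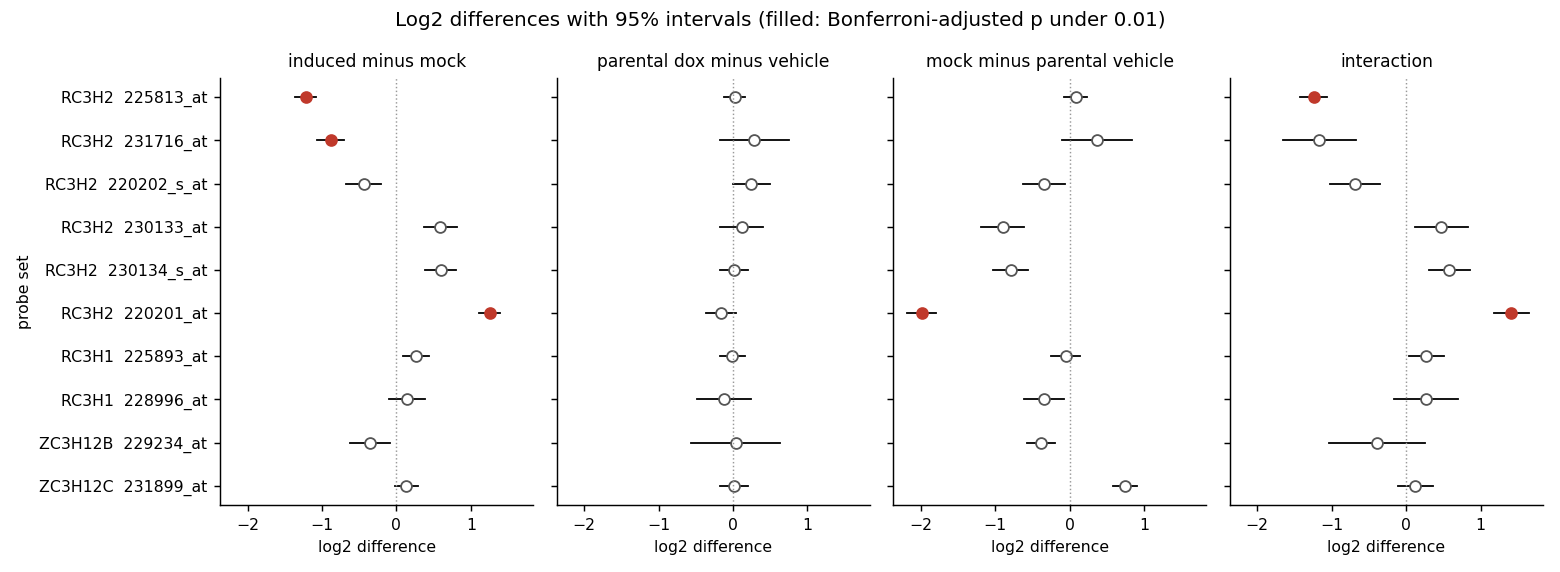
Log2 difference of the 10 tested member probe sets in the 4 comparisons, with 95% intervals from limma that are not adjusted for the number of probe sets. Filled points passed a Bonferroni-adjusted p under 0.01: 3 RC3H2 probe sets for induced against mock-induced cells, none in parental cells, 1 between the lines and 2 for the interaction.

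Cells of the 2 lines, which were also grown differently, already differed before induction. Between mock-induced and parental vehicle cells 1 of the 10 members was called, against 17.8% of the 18097 probe sets tested, and 5 of the 10 did not overlap, against 59.4% of all. At a Benjamini-Hochberg adjusted p under 0.05, 7 of the 10 passed, against 71.7%. The called probe set was RC3H2 220201_at, which read 6.89, 7.06, 6.80, 6.83 and 6.89 in mock-induced cells, against 9.07, 8.84, 8.63, 9.00 and 8.85 in parental vehicle cells. The difference was −1.99 (SE 0.09, adjusted p = 4.91e-06 in limma), a level 3.97-fold lower in mock-induced cells. The order of the group means of 220201_at was therefore mock-induced, induced, parental doxycycline and parental vehicle, from low to high. The induced arrays (8.07 to 8.28) overlapped neither the mock-induced nor the parental arrays, while the parental groups overlapped each other.

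Probe sets 230133_at and 230134_s_at had the same order of low and high lines, at −0.90 (SE 0.13) and −0.79 (SE 0.11) in mock-induced against parental vehicle cells, without overlap (exact permutation p = 0.00794 each) and without a call (adjusted p = 0.625 and 0.317 in limma). With all 20 arrays in 1 model, both were called (adjusted p = 0.009 and 0.00115). For 225813_at the levels were 11.94 ± 0.10 in mock-induced and 11.86 ± 0.10 in parental vehicle cells (SD, n = 5 each) and a 95% interval of the difference from −0.07 to 0.23. In 225813_at, mock-induced, parental doxycycline and parental vehicle arrays overlapped, and only the induced arrays stood apart, at the low end.

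ZC3H12C showed its main difference between the lines. Its probe set 231899_at read 8.48, 8.27, 8.24, 8.37 and 8.35 in mock-induced cells, against 7.48, 7.75, 7.44, 7.69 and 7.63 in parental vehicle cells. Every mock-induced array was above every parental array, and the difference was 0.75 (SE 0.07, exact permutation p = 0.00794). Its adjusted p of 0.018 in limma missed the threshold, and it was called with all 20 arrays in 1 model (adjusted p = 0.000192) and in the fit of 1 probe set per gene, the brightest (adjusted p = 0.00592). ZC3H12B 229234_at differed by −0.39 between mock-induced and parental vehicle cells (SE 0.08, exact permutation p = 0.00794), without overlap and not called. In RC3H1 the difference between the lines was −0.05 (SE 0.09) for 225893_at and −0.34 (SE 0.12) for 228996_at, neither called. Centring on the poly-A controls gave 1094 higher and 415 lower calls over all probe sets in this comparison, in place of 1921 and 1303.

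ZFP36 itself was read by 1 probe set, 201531_at, at 5.42 ± 0.49 in induced and 5.36 ± 0.43 in mock-induced cells (SD, n = 5 each, exact permutation p = 0.833). In parental cells it read 3.76 ± 0.58 with doxycycline and 3.45 ± 0.56 with vehicle, and mock-induced cells were 1.91 above parental vehicle cells (exact permutation p = 0.00794). Whether this probe set lies in the part of ZFP36 that the fusion gene carries was not determined here, so it does not check the induction. As a check of the cells, the HEK293 features vimentin (VIM) and neurofilament light chain (NEFL) were bright in both groups of the EGFP-ZFP36 line, at group means of 15.25 and 14.87 for VIM and of 13.49 and 12.87 for NEFL in induced and mock-induced cells. Of the 6 listed features, 4 had a probe set naming 1 gene alone, while KRT8 and KRT18 had none and were not read. PAX2 was called higher in induced cells, at 4.86 against 2.77, and NEFM was at 5.81 against 3.87 and not called. In this comparison both passed the filter of 4.5 through the induced cells alone, so both differences are only bounds. Between mock-induced and parental vehicle cells, however, NEFM (neurofilament medium chain) differed by −8.40, again a bound. This feature was thus much lower in the EGFP-ZFP36 line than in its parent. For induced against mock-induced cells 2 of the 4 tested features, PAX2 and NEFL, were called, against 49.3% of all genes. When 1 array was left out, only 0 to 1 were called. With the replicate number as a block NEFM alone was called, and with the mean of its probe sets NEFL was at −0.17. The 9 measurable markers of blood cells all stayed under 4.5 on every array.

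The genes whose values ran closest to those of the members over the 20 arrays were found by Pearson correlation with the brightest probe set of each member. For RC3H2 225813_at these were HIPK1, a homeodomain-interacting kinase (r = 0.995), and LNPK, an endoplasmic reticulum junction protein (r = 0.992). Both fell after induction, with log2 differences of −1.57 and −2.62 between induced and mock-induced cells. For ZC3H12C they were the zinc finger genes ZMYM2 and ZNF302 (r = 0.98 each), which differed by 0.87 and 2.39 between mock-induced and parental vehicle cells. RC3H1 ran closest to EBP, a sterol isomerase (r = 0.91), and FRMD4A (r = 0.86), and ZC3H12B to SPAG9 and ZFX (r = 0.81 each). These correlations, too, include the differences between the 4 groups.

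The decay machinery that Roquin proteins recruit included genes that moved in both directions. Of 19 genes of CCR4-NOT, decapping and close cofactors, each represented by its brightest probe set, 8 were called higher and 3 lower after induction and 8 were not called. Over all 10669 genes, 27.2% were called higher and 22.1% lower. The median difference of the list was 0.44 and that of all genes 0.21. CNOT1, the scaffold of CCR4-NOT, averaged 13.17 in induced and 11.64 in mock-induced cells, a difference of 1.53 (SE 0.05). CNOT2 and CNOT10, further subunits, differed by 1.11 and 1.09.

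The decapping enzyme and its helpers were called in both directions. EDC3, an enhancer of decapping, averaged 9.80 after induction and 8.04 with mock induction, a difference of 1.76 (SE 0.06). DCP1B, a decapping activator, differed by 1.44 (SE 0.06). DCP2, the decapping enzyme, averaged 11.23 after induction and 12.19 with mock induction, and differed by −0.96 (SE 0.05). NUFIP2, a cofactor of Roquin that was named after its values were seen, differed by −0.84 (SE 0.08). Without probe sets of the types that can match several transcripts (_s_at and _x_at), 6 of 16 genes were called higher and 6 lower, and on the poly-A scale 3 of 19 were called higher and 4 lower. With the replicate number as a block, 6 of 19 were called higher and 0 lower, against 5 higher and 1 lower with a separate spread per group, and under the block the calls of DCP2 and NUFIP2 were lost (adjusted p = 0.0175 and 0.341). With the mean of all probe sets of a gene, CNOT2 was at 0.45, DCP2 at −0.53 and NUFIP2 at −0.41, none of them called, while CNOT1 was still called at 0.74 and CNOT6, at −0.09 by its brightest probe set, was called lower at −0.97.

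Of 14 listed genes that control Roquin or Regnase proteins, 11 had a probe set and were tested, and 2 were called higher and 3 lower (median −0.35). Over all genes, 27.2% were called higher and 22.1% lower (median 0.21). MALT1 is the protease that cleaves Roquin and Regnase-1, and it differed by 0.01 (SE 0.06, named after its values were seen) between induced and mock-induced cells, or 0.57 and no call with the mean of its probe sets. Its partner BCL10 averaged 9.14 in induced and 10.80 in mock-induced cells, a difference of −1.67 (SE 0.07), or −0.35 and no call with the mean of its probe sets. FBXW11 and BTRC are the paired F-box proteins that mark phosphorylated Regnase-1 for degradation. FBXW11 averaged 8.54 after induction and 10.71 with mock induction (difference −2.17, SE 0.07, or −1.22 and still called with the mean of its probe sets), while BTRC averaged 10.45 after induction and 9.41 with mock induction (difference 1.04, SE 0.08).

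The 2 catalytic subunits of the IκB kinase, which phosphorylates Regnase-1, also differed in sign. After induction IKBKB was higher, at 1.14 (SE 0.05), and CHUK was lower, at −1.36 (SE 0.10). TANK, another of the listed regulators, was at −1.01 (SE 0.13, adjusted p = 0.131 in limma), and was called at −0.79 with the mean of its probe sets. On the poly-A scale the calls of IKBKB and BTRC were lost, at 0.77 and 0.67, and those of FBXW11, BCL10 and CHUK remained. With the replicate number as a block BTRC was not called (adjusted p = 0.022), and with a separate spread per group neither BTRC nor CHUK was (adjusted p = 0.538 and 0.0919).

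Most messages known as targets of Roquin or Regnase are immune messages, and 13 of the 19 listed were under the filter. Of the 6 tested, 1 was called, against 49.3% of all genes. This was TFRC, the transferrin receptor whose 3′ UTR stem-loops Regnase-1 cuts. It averaged 12.96 in induced and 13.79 in mock-induced cells, a difference of −0.83 (SE 0.05, adjusted p = 5.34e-05 in limma). This call was lost with the mean of its probe sets (−0.54, adjusted p = 0.0327), with the replicate number as a block (adjusted p = 0.0294) and with a separate spread per group (adjusted p = 0.0322). The others were REL at −0.42, NFKBIZ at −0.53, EGR1 at −1.17, TNFAIP3 at 0.48 and CXCL3 at 0.52, none of them called. With the mean of its probe sets REL had the opposite sign, at 0.45 (adjusted p = 0.0451, not called). Several of these messages also carry AU-rich elements. Of the NYN domain relatives, KHNYN differed by 1.16 (SE 0.13, adjusted p = 0.0405 in limma, not called, and 0.00447 with the replicate number as a block) and N4BP1, a ribonuclease that restrains innate signalling, by −0.06 (SE 0.06).

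**Figure D4:**
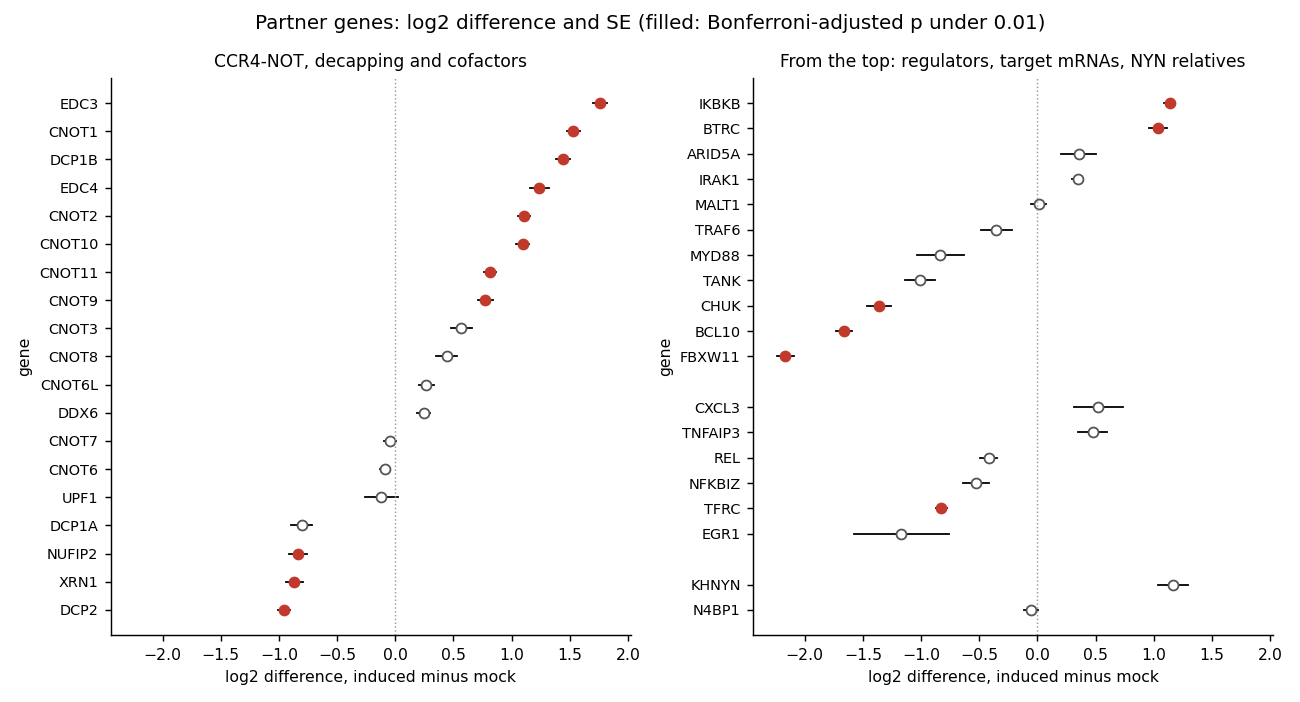
Log2 difference with its standard error, induced minus mock-induced cells, of the tested partner genes by their brightest probe set. On the left are the 19 genes of CCR4-NOT, decapping and cofactors, and on the right, from the top, 11 regulators, 6 target messages and 2 NYN relatives. Filled points passed a Bonferroni-adjusted p under 0.01, and among the target messages TFRC alone did.

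In parental cells 0 genes of these lists were called between doxycycline and vehicle. Between mock-induced and parental vehicle cells, 3 of the 19 decay genes, 2 of the 11 regulators and 2 of the 6 target messages were called, against 20.7% of all genes.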

How the data were processed

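The authors normalized the arrays with GCRMA, whose version the sources used here do not give, and deposited log2 values for 50441 probe sets. Of these, 38070 name exactly 1 gene in the platform annotation, 1423 name several and 10886 name none. Groups came from the sample labels, with 5 arrays each. Comparisons used lmFit and eBayes of limma 3.58.1 (R 4.3.3) over all probe sets that name 1 gene and had a mean above 4.5 in at least 1 group fitted, and p-values were Bonferroni-adjusted over all of them. The filter and the threshold of 0.01 follow the study's methods, which do not name the test. Single probe sets were also compared with a two-sided exact permutation test of 5 against 5 arrays, whose smallest p is 0.00794. Array number limits the precision. The fit was tested on simulated data. Members, gene lists and tests were chosen with earlier results of these data known. Named are all members, ZFP36, up to 6 genes of each list with the smallest p and the 2 genes closest to each member by correlation. Genes of a list stand by their brightest probe set. Lists were written from textbook knowledge, and list counts under alternatives were added after seeing the data. ZFP36 site sequences came from part of the study's site list, and none of its values were used. Figures were drawn with matplotlib 3.10.9 in Python 3.11.15. Alternatives covered the filter, the choice of probe set, scaling to control probe sets, the variance model, the replicate number as a block, the threshold and leaving out single arrays.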

Additional observations from a re-analysis of the deposited data

Results flagged for a closer look

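In 6 of the 40 sets of 5 values (10 tested member probe sets in 4 groups), 1 array lay far from the other 4 by Dixon's criterion, which chance gives in about 5% of sets. For RC3H1 225893_at, induced replicate 4 read 10.51 against 10.25 to 10.31 on the others, and parental vehicle replicate 4 read 10.39 against 10.03 to 10.10. For RC3H1 228996_at, parental doxycycline replicate 2 read 7.24 against 6.58 to 6.63. For RC3H2 230134_s_at, mock-induced replicate 3 read 5.83 against 6.24 to 6.36, and for RC3H2 231716_at, parental vehicle replicate 3 read 7.96 against 8.96 to 9.22. For ZC3H12B 229234_at, mock-induced replicate 3 read 4.87 against 5.09 on each of the others.

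The response to doxycycline differed between the EGFP-ZFP36 and the parental line for 2 RC3H2 probe sets by the interaction test in limma, at 1.41 for 220201_at and −1.24 for 225813_at on the log2 scale. Both calls were lost when arrays were centred on the poly-A controls, and 39.7% of all tested probe sets had a called interaction.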

How the results depend on the processing

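Counts of called member probe sets, 3 for induced against mock-induced cells, 1 for mock-induced against parental vehicle cells and 2 for the interaction, changed as follows. With the brightest probe set per gene they were 1 for the first and 1 for the interaction, while the single call between mock-induced and parental vehicle cells was then ZC3H12C 231899_at, higher, in place of RC3H2 220201_at, lower. With the mean of all probe sets per gene they were 0 in each of the 3. At a Benjamini-Hochberg adjusted p under 0.05 they were 8, 7 and 7. With all 20 arrays in 1 model the comparison of mock-induced with parental vehicle cells had 4, and centred on the poly-A controls the interaction had 0. For induced against mock-induced cells the count was 2 without the filter, on the poly-A controls, with a separate spread per group and with all 20 arrays. Centred on the hybridization controls the interaction had 3. Leaving out 1 array gave 2 to 3, 1 to 1 and 2 to 3 calls. In parental cells every alternative that was run gave 0.

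Over all probe sets, the counts of 8297, 3224 and 7402 moved to 5028 (induced against mock-induced) and 4532 (interaction) with the mean per gene, to 3739 and 1145 (mock-induced against parental vehicle) with a separate spread per group, to 2064 without a filter and 5361 with all 20 arrays for mock-induced against parental vehicle, to 15820, 12972 and 14458 at the Benjamini-Hochberg threshold, to 1509 (mock-induced against parental vehicle) and 2600 (interaction) centred on the poly-A controls, and to 4831 (interaction) on the hybridization controls. Leaving out 1 array gave 6941 to 7508, 2322 to 3063 and 6841 to 7420.

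The study's methods describe treated and untreated cells prepared as pairs on separate days, but neither they nor the labels tie a replicate number to a day. Same-numbered arrays correlated in their deviations between 0.01 and 0.21 for induced and mock-induced cells, with 3 of 5 above 0.1, so the number was not taken as a pairing. With the replicate number as a block, 1 member and 4679 probe sets were called for induced against mock-induced cells, and 987 probe sets for mock-induced against parental vehicle cells.

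Signs changed for small differences, none of them called. For induced against mock-induced cells, the poly-A scale gave −0.10 and −0.22 for RC3H1 225893_at and 228996_at and −0.23 for ZC3H12C 231899_at. In parental cells it gave −0.11, −0.33, −0.24, −0.34 and −0.068 for RC3H2 220202_s_at, 225813_at, 230133_at, 230134_s_at and 231716_at. It also gave −0.32 for ZC3H12B 229234_at and −0.35 for ZC3H12C 231899_at, and RC3H1 225893_at was at 0.071 on the hybridization scale. The mean of all RC3H1 probe sets was at 0.0052 in parental cells. Leaving out 1 array there gave −0.20 to 0.18 for ZC3H12B 229234_at, −0.032 to 0.059 for RC3H1 225893_at, −0.044 to 0.050 for ZC3H12C 231899_at, −0.038 to 0.066 for RC3H2 230134_s_at and −0.013 to 0.058 for RC3H2 225813_at. Between mock-induced and parental vehicle cells, RC3H2 225813_at was at −0.011 on the hybridization scale, and RC3H1 225893_at was between −0.091 and 0.014 without 1 array. The mean of all probe sets of a gene is a different quantity from the value of 1 probe set. In this comparison it was −0.59 for RC3H2 (adjusted p = 0.0582 in limma), where 225813_at alone was at 0.08. For RC3H1 the mean was 0.13, where 225893_at alone was at −0.05. On the hybridization scale the interaction of ZC3H12C 231899_at was −0.072. Of 900 member values under the alternatives, 829 kept their direction and their side of the threshold, and the causes of the changes were not tested.

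Of the 5 probe sets under the filter, 3 did not exceed 2.43 on any array, among them that of ZC3H12D, so differences in these were not detectable. RC3H1 215109_at and RC3H2 238421_at read above background on some arrays and were not tested. The number of arrays limits the rest.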
